A study of Mus musculus with 9 samples.

Results

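Ribosome-associated RNA of neurons of the medial prefrontal cortex was compared between sleep and enforced wake, over all genes of 6 of the 9 libraries of the study. Each gene was the sum of the FPKM (fragments per kilobase of transcript, scaled to the mapped fragments) of its transcripts by symbol, and 14673 of 47593 symbols had a mean of at least 0.5 FPKM over the 6 libraries and were tested. The mice were adults of the C57BL/6 strain. GFP, a fluorescent protein, was overexpressed in the medial prefrontal cortex of both groups, so that both carry the control transgene. There were 3 libraries of the sleep group and 3 of the enforced wake group. In the remaining 3 libraries of the study the fusion GFP-Fxr1 (Fxr1 binds RNA and is a relative of the fragile X protein) took the place of GFP, again with enforced wake, and they are used below only as side values. RNA was obtained by RiboTag immunoprecipitation, which pulls down a tagged ribosomal protein with the RNA on its ribosomes, and libraries were made from total RNA with a stranded kit. Neither the cells that express the tagged protein nor the length of enforced wake were given in the sources used here. Whether the replicates are different animals is not in the labels. All p-values therefore measure the spread among these samples alone, and that spread may be technical.

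The medial prefrontal cortex is an area in which neurons fire more, and in a more sustained way, in wake than in deep sleep. Calcium entry during firing drives the Ras-MAP kinase pathway and the transcription factor CREB, and the genes they induce include the phosphatases and adaptors that shut the pathway down again. Keeping an animal awake also raises its circulating corticosterone, the rodent glucocorticoid, which acts through a nuclear receptor on its own set of target genes.

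The libraries held an estimated 2.99e7 to 3.32e7 fragments. Pearson correlations across genes were 0.984 to 0.987 among the sleep libraries and 0.989 to 0.990 among the enforced wake libraries. The first principal component, with 57.9% of the variance, placed the sleep libraries at -32.5 to -13.3 and the enforced wake libraries at 19.2 to 24.7. Protein-coding genes took 90.3% to 92.0% of the summed FPKM of a sleep library and 85.3% to 86.3% of that of an enforced wake library. Their own sum overlapped, at 304291 to 304893 and 303486 to 306673 FPKM. The sum of all genes was 330697 to 337117 in sleep and 353448 to 358936 in enforced wake. Gene models of the miRNA class took 0.592% to 1.56% and 4.04% to 4.59% of it, and those of the miscellaneous RNA class 2.39% to 3.34% and 4.99% to 5.39%. Neuronal markers were high in both groups: the summed level of 12 pan-neuronal markers ranged from 4483 to 4666 FPKM over the sleep libraries and from 4180 to 4467 over those of enforced wake. Snap25 made up most of that sum, with 2555 to 2724 and 2198 to 2361 FPKM. The sum was lower in enforced wake with no overlap, but 8 of the 12 markers had a positive difference in log2(FPKM + 1), with a median of 0.24. By the limma test below, 4 of them were higher and 3 lower. The summed level of 15 excitatory neuron markers ranged from 816 to 874 in sleep and from 876 to 972 FPKM in enforced wake. That of 15 inhibitory neuron markers ranged from 794 to 910 and from 987 to 998. Both sums were higher in enforced wake with no overlap, but most single markers did not rise by limma. Of the excitatory markers 4 were higher and 3 lower, and of the inhibitory ones 3 and 0. With the GC trend described below removed, these were 3 and 2, and 1 and 1. Cck was the largest part of the inhibitory sum, with 306 to 339 and 404 to 432 FPKM. The summed level of 15 astrocyte markers ranged from 647 to 724 and from 744 to 867 FPKM, also higher in enforced wake with no overlap. That of 15 microglia markers ranged from 46.4 to 74.8 and from 59.9 to 67.8, and that of 15 oligodendrocyte markers from 119 to 183 and from 166 to 191. No defining marker of these glia was at 0 in any library. In such bulk samples, fewer cells of a type and less RNA per cell cannot be told apart.

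Differences between enforced wake and sleep were widespread and mostly small. By limma with Benjamini-Hochberg adjustment, 4156 genes passed an adjusted p of 0.05 (28.3% of those tested), of which 2298 were higher (15.7%) and 1858 lower (12.7%) in enforced wake. The median difference over all genes was 0.00 on the scale of log2(FPKM + 1), which is the scale of every difference below, given as enforced wake minus sleep with its SE over 3 libraries a group. The median size was 0.19 over all genes and 0.41 over those that passed. On this scale rises were the larger ones. Among genes that passed, 694 (4.73%) rose by at least 1.5-fold in FPKM + 1 and 215 (1.47%) fell by as much. At 2-fold in FPKM + 1 the counts were 127 and 13. A fold of FPKM + 1 is smaller than that of FPKM, so more genes changed by as much in FPKM itself. The groups did not overlap in 7265 genes (49.5%). Leaving out enforced wake replicate 1, 2 or 3 left 2539, 1850 and 1910 genes, and leaving out a sleep library left 2818 to 3635.

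**Figure D1:**
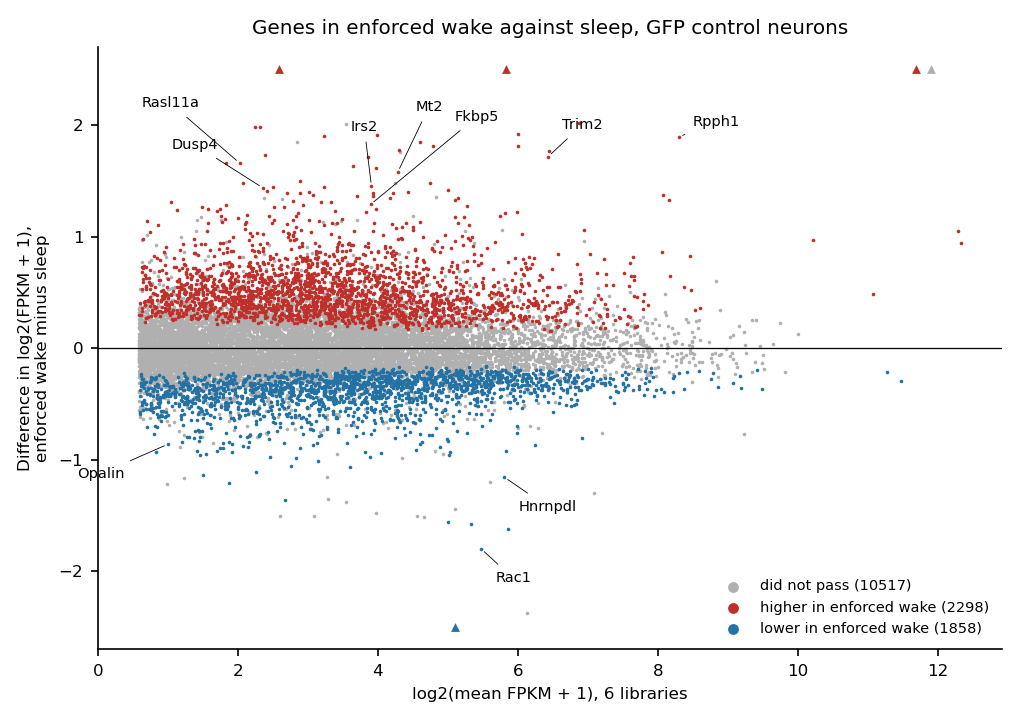
Each point is 1 of the 14673 genes tested, with its log2(mean FPKM + 1) over 6 libraries on the horizontal axis and the difference in log2(FPKM + 1), enforced wake minus sleep, on the vertical axis, coloured by whether it passed limma at an adjusted p of 0.05. Triangles mark 5 genes beyond the axis limit of 2.5, and the red points reach further from 0 than the blue ones.

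Direction followed base composition. Protein-coding genes were split into 5 groups of 2504 genes by the GC content of their transcripts. In the group with the lowest GC, with a median of 41.4%, 78 genes rose and 721 fell, and in the group with the highest, with a median of 58.0%, 967 rose and 38 fell. After the trend with GC and length was subtracted from each library, 249 rose and 306 fell in the lowest group and 298 rose and 346 fell in the highest. Over all genes that left 3394 (23.1%), with 1527 higher (10.4%) and 1867 lower (12.7%). With and without the trend, 2277 genes passed on the same side. Subtraction also takes out any change of state that follows GC, so which of the differences are tied to library composition was not tested. Most gene groups below are given with the count after this step as well. Before this step their counts stand against 15.7% higher and 12.7% lower over all genes. The lists were written with earlier results of these data known, and the part of that choice in their shares was not tested. By number of transcripts the shares were close: 29.3% of 4601 genes with 1 transcript passed, and 27.9% of 10072 genes with more.

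**Figure D2:**
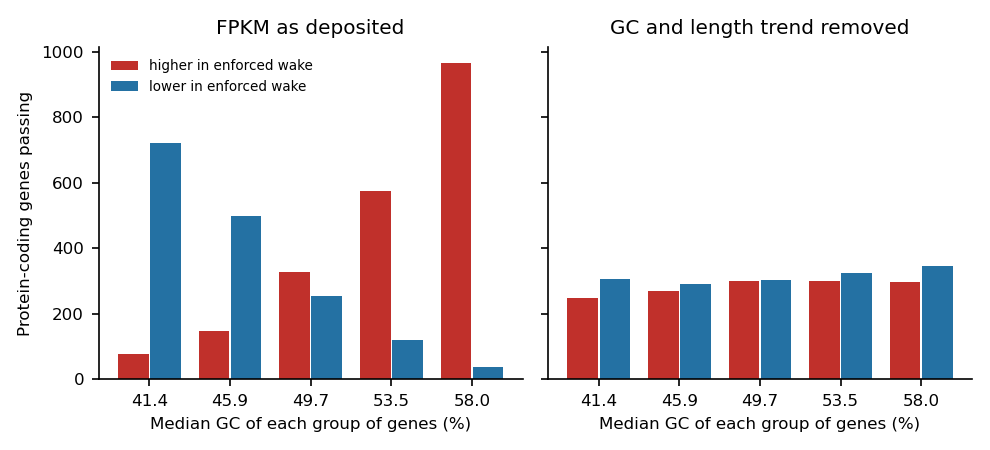
Bars give the number of protein-coding genes that passed in each direction (vertical axis) in each of 5 groups by GC content, labelled by the median GC (%) of the group (horizontal axis), for FPKM as deposited on the left and with the GC and length trend removed on the right. On the left the group at 41.4% GC holds 721 lower genes and the group at 58.0% holds 967 higher ones, and on the right the bars are nearly level.

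**Figure D3:**
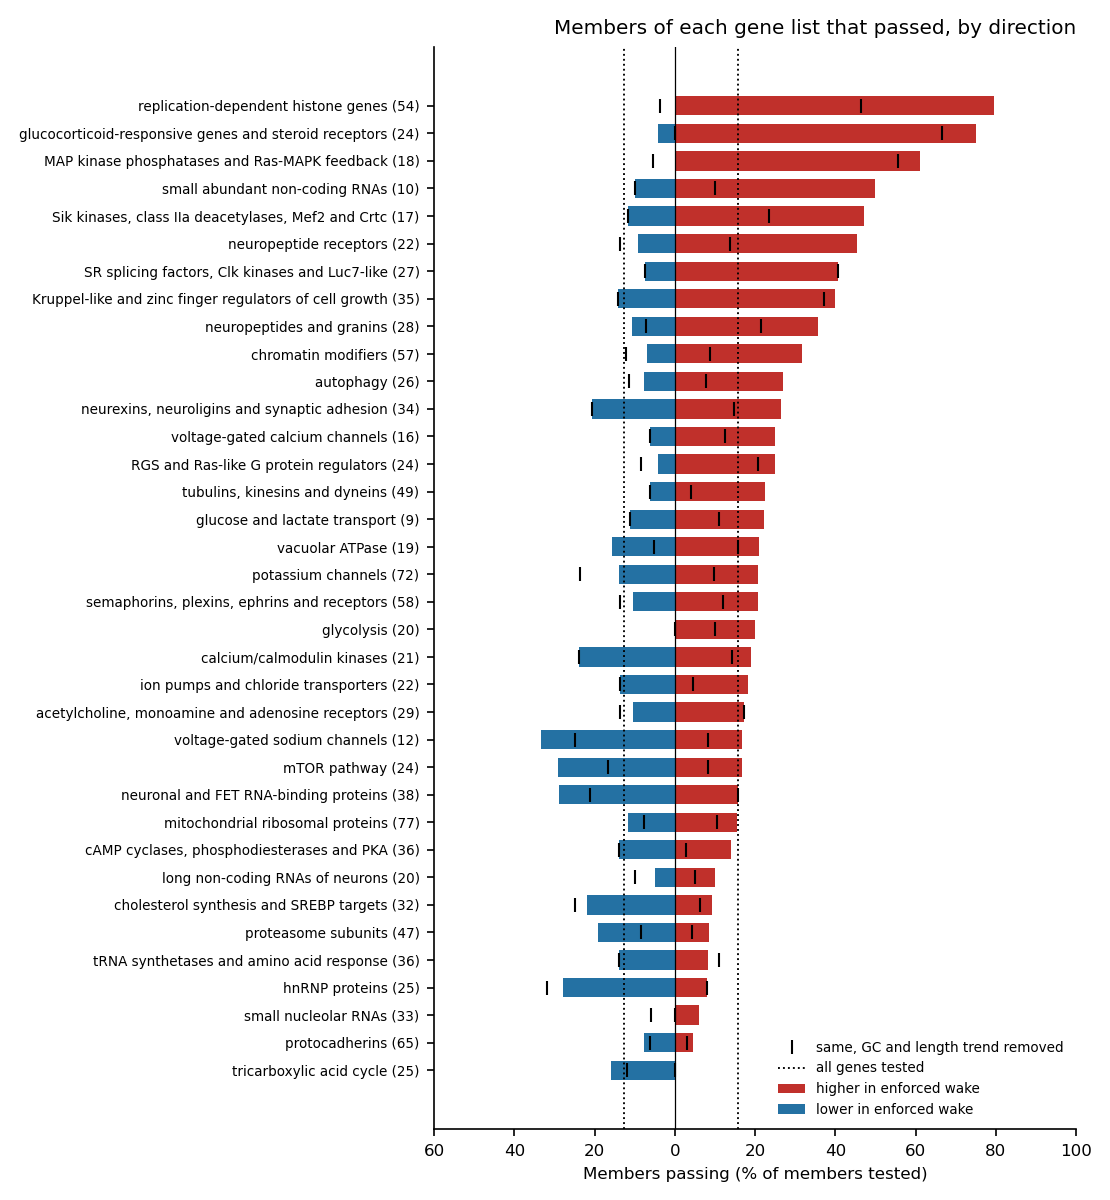
Bars give, for each gene list shown, the percentage of its tested members (number in brackets) that were higher (red, to the right) or lower (blue, to the left) in enforced wake by limma at an adjusted p of 0.05, ticks give the same with the GC and length trend removed, and dotted lines mark all genes tested (15.7% and 12.7%). Histone, glucocorticoid-responsive and Ras-MAPK feedback genes lie furthest to the right, and the tick lies far inside the bar for histones. The lists were written with earlier results of these data known.

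Most of the tested brakes of the Ras-MAP kinase pathway rose. Of 18 genes tested for dual-specificity phosphatases, Sprouty and Spred proteins and related inhibitors, 11 were higher and none lower, with a median of 0.39, and the count was 8 to 11 with 1 library left out and 10 higher and 1 lower with the GC trend removed. Dusp4, a nuclear phosphatase of MAP kinases, had 2.07, 1.57 and 1.67 FPKM in sleep and 5.94, 6.85 and 6.65 in enforced wake. Dusp5, a nuclear phosphatase of ERK, had 3.47, 1.97 and 2.43 FPKM in sleep and 9.07, 8.04 and 8.04 in enforced wake. Dusp6, the cytoplasmic ERK phosphatase, had 24.2, 20.7 and 21.5 FPKM in sleep and 40.7, 44.1 and 40.9 in enforced wake. In each of these 3 genes the lowest enforced wake library lay above the highest sleep library, with differences of 1.44 ± 0.10, 1.39 ± 0.15 and 0.89 ± 0.07 (limma adjusted p = 0.00104, 0.003 and 0.0014). The Sprouty proteins, which block Ras activation by growth factor receptors, followed. Spry4 had 2.08, 1.43 and 1.68 FPKM in sleep and 4.58, 4.88 and 5.2 in enforced wake and rose by 1.12 ± 0.10, while Spry2, which was much more abundant, had 19.2, 16.6 and 19.1 FPKM in sleep and 24.8, 24.9 and 25.8 in enforced wake and rose by only 0.44 ± 0.07. Errfi1, which binds and inhibits the epidermal growth factor receptor, had 12.7, 12.7 and 12.7 FPKM in sleep and 16.5, 16.2 and 15.7 in enforced wake and rose by 0.32 ± 0.05. The rise did not extend to every phosphatase or Sprouty gene of the list: Dusp3 (-0.17), Dusp16 (-0.09), Dusp10 (0.12), Dusp8 (0.12), Dusp7 (0.23), Dusp14 (0.39) and Spry1 (0.06) did not pass.

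Of 24 RGS and Ras-like G protein regulators tested, 6 were higher and 1 lower, with a median of 0.05, and 5 and 2 with the GC trend removed. Without enforced wake replicate 2 or 3 there were 3 higher. Rasl11a and Irs2 were outside this list. Rasl11a, a small Ras-like GTPase, had 1.34, 0.674 and 0.8996 FPKM in sleep and 5.01, 5.11 and 5.37 in enforced wake and rose by 1.66 ± 0.13 (limma adjusted p = 0.00123). Irs2, the adaptor of insulin and IGF-1 receptors, had 7.51, 6.95 and 6.69 FPKM in sleep and 20.1, 21.5 and 21.3 in enforced wake with no overlap, and rose by 1.45 ± 0.07 (limma adjusted p = 0.000309). Rrad, a member of the list and a Ras-like inhibitor of voltage-gated calcium channels, was at a low level in sleep and had 0.304, 0.262 and 0.305 FPKM in sleep and 1.64, 1.91 and 2.7 in enforced wake. Rcan1, an inhibitor of the calcium-dependent phosphatase calcineurin, rose by 0.48 ± 0.07. The calcium/calmodulin kinases split: Camk1g had 24.6, 23.4 and 22.9 FPKM in sleep and 42.1, 35.8 and 38.8 in enforced wake and rose by 0.69 ± 0.07, whereas Camk4, the nuclear kinase of CREB, had 65, 70.7 and 64.2 FPKM in sleep and 46.7, 47.1 and 48.2 in enforced wake and fell by 0.48. In that list of 21 kinases and related genes, 4 were higher and 5 lower, 3 and 5 with the GC trend removed, and 2 and 2 without enforced wake replicate 2.

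Among salt-inducible kinases and the transcriptional regulators they phosphorylate, 8 of 17 genes tested were higher and 2 lower, with a median of 0.36. The number of higher genes was 4 without enforced wake replicate 2 or 3, and with the GC trend removed 4 were higher and 2 lower. Sik1 had 1.19, 0.887 and 0.889 FPKM in sleep and 3.74, 3.59 and 3.84 in enforced wake and rose by 1.25 ± 0.09 (limma adjusted p = 0.00109), and Sik2 had 7.18, 7.27 and 7.6 FPKM in sleep and 12.7, 14.9 and 13.7 in enforced wake and rose by 0.82 ± 0.07. Both kinases hold CREB coactivators in the cytoplasm. Hdac4, a class IIa histone deacetylase that these kinases keep out of the nucleus, had 11.1, 9.42 and 10.7 FPKM in sleep and 15.3, 15 and 14.8 in enforced wake and rose by 0.49 ± 0.07. All 3 genes were higher in every enforced wake library than in any sleep library. Crtc1, a CREB coactivator, had 3.82, 11.4 and 3.81 FPKM in sleep and 18.9, 19.6 and 23.8 in enforced wake, with the second sleep library apart from the other two, and its rise of 1.71 ± 0.36 did not pass without enforced wake replicate 2 or 3 or with the GC trend removed.

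Most genes of the glucocorticoid-responsive list, written with earlier results of these data known, rose. Of 24 genes tested, 18 were higher and 1 lower, with a median of 0.77. With 1 library left out 15 to 17 were higher, and with the GC trend removed 16 were higher and none lower. Fkbp5, a co-chaperone that dampens the glucocorticoid receptor, had 7.98, 7.31 and 7.65 FPKM in sleep and 21.3, 19 and 20.1 in enforced wake and rose by 1.29 ± 0.07 (limma adjusted p = 0.000451). Tsc22d3, which encodes the anti-inflammatory protein GILZ, had 27.7, 29 and 25.4 FPKM in sleep and 56.9, 56 and 45.6 in enforced wake and rose by 0.92 ± 0.10. Zbtb16, a zinc finger repressor, had 8.09, 6.17 and 7.54 FPKM in sleep and 14.2, 13.7 and 14.2 in enforced wake and rose by 0.87 ± 0.10. In these genes no enforced wake library overlapped a sleep library, and the spread within a group was small against the difference. Plin4, a lipid droplet coat protein, was nearly absent in sleep, with 0, 0.023 and 0.0206 FPKM in sleep and 1.29, 1.002 and 1.44 in enforced wake. Sult1a1, a sulfotransferase, had 0.909, 0.714 and 1.02 FPKM in sleep and 3.27, 3.01 and 2.94 in enforced wake, and Arl4d, a small GTPase of the Arf family, had 4.85, 3.77 and 4.12 FPKM in sleep and 12.5, 11.8 and 11.6 in enforced wake, rising by 1.12 ± 0.09 and 1.31 ± 0.09. Cdkn1a, the cell cycle inhibitor p21, rose by 1.24 ± 0.11 from 8.44, 7.3 and 9.25 to 19.6, 20.003 and 23.6 FPKM. The abundant transcription factor Klf9 rose by 0.36 ± 0.05 from 68.8, 67.6 and 66.6 to 89.1, 85.3 and 87.1 FPKM, a small difference held by all 3 libraries of each group.

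The metallothioneins, zinc-binding proteins made in astrocytes as well as neurons, were in the same list. Mt1 had 37.1, 28.1 and 30.8 FPKM in sleep and 67.8, 70.5 and 82.8 in enforced wake, and Mt2 had 9.66, 8.54 and 7.73 FPKM in sleep and 23, 24.9 and 37 in enforced wake, with the third enforced wake library the highest in both. They rose by 1.18 ± 0.12 and 1.58 ± 0.18 (limma adjusted p = 0.00251 and 0.00325). Gjb6, the gap junction protein connexin 30 of astrocytes, had 9.83, 12.3 and 9.83 FPKM in sleep and 22.8, 22.7 and 27.1 in enforced wake. Of 15 astrocyte markers 3 were higher and 2 lower, and Gfap (29.7, 24.9 and 35 FPKM in sleep and 35.5, 34.1 and 41.2 in enforced wake), Aqp4 (13.8, 13.9 and 16.1 FPKM in sleep and 10.9, 12 and 13.5 in enforced wake) and Slc1a3 (47, 40.7 and 45.8 FPKM in sleep and 42.2, 43 and 49.7 in enforced wake) did not pass. The part of RNA from astrocytes in the rise of the metallothioneins was not tested. Of the other members, Sgk1 (0.13), Pdk4 (-0.10), Nr3c2 (0.14), which encodes the mineralocorticoid receptor, and Il1r1 (0.07) did not pass. The glucocorticoid receptor itself, Nr3c1, had 40.1, 39.1 and 43.1 FPKM in sleep and 31.7, 29.8 and 36.6 in enforced wake, and its fall of 0.31 did not pass with the GC trend removed or in 5 of the 6 fits that left out 1 library.

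**Figure D4:**
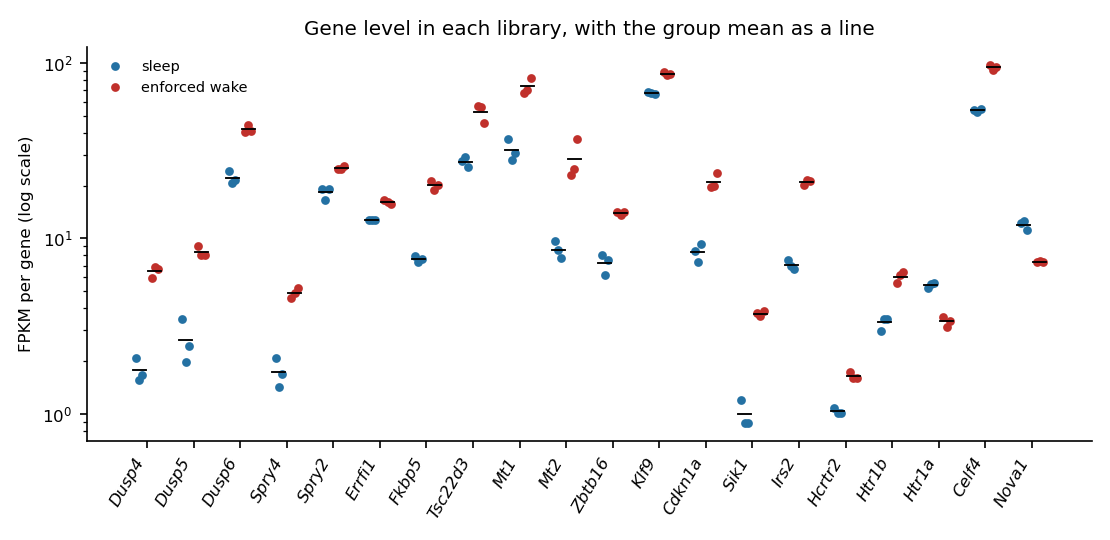
Each dot is the FPKM of a gene in 1 library (vertical axis, log scale), for 3 sleep (blue) and 3 enforced wake (red) libraries, with the group mean as a line and genes along the horizontal axis. Red dots lie above blue ones for the first 17 genes, from Dusp4 to Htr1b, and for Celf4, and below them for Htr1a and Nova1.

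The promoters of these genes were read for the cAMP response element, the binding site of CREB. The motif TGACGTCA, which reads the same on both strands, was searched in the 250 bases before the RefSeq start (GRCm38.p6), which were at hand for 9896 of the genes tested (67.4%). It stood in 319 of them (3.22%), in 57 of 1588 genes that rose (3.59%) and in 32 of 1292 that fell (2.48%). The 5 promoters shown are those of list members that passed under every setting tried and hold the motif, given 5′ to 3′ on the gene's strand with the motif in capitals, so that its place against the start at the right-hand end can be seen.
Errfi1: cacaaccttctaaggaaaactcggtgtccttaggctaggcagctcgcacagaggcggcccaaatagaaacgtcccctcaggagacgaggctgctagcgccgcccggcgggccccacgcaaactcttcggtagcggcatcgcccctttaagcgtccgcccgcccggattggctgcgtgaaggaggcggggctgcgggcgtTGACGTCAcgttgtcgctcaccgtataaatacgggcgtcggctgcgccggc
Arl4d: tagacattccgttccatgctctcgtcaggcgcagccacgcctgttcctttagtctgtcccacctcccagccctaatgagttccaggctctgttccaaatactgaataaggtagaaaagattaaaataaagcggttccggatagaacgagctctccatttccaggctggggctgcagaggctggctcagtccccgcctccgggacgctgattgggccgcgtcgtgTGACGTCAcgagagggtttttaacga
Pcsk1: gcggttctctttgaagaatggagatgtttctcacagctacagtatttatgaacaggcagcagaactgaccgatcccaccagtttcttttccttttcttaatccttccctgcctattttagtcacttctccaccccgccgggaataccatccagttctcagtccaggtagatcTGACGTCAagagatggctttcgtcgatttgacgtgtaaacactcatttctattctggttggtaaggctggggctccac
Rcan1: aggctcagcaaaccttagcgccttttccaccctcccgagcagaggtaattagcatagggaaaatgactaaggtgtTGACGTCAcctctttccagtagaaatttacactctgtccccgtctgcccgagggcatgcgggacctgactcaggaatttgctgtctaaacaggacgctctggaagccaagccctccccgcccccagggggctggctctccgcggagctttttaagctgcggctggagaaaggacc
Arhgef7: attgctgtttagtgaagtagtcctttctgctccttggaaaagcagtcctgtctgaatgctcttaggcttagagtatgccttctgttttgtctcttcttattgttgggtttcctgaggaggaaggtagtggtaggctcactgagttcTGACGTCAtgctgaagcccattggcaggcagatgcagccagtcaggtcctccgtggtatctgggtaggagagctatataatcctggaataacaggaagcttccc
The regions are chr4:150854820-150855069, chr11:101665291-101665540, chr13:75089607-75089856 and chr8:11779034-11779283 on the plus strand and chr16:92400079-92400328 on the minus strand. The motif began 26 bases before the start in Arl4d, 51 in Errfi1, 78 in Pcsk1, 104 in Arhgef7 and 175 in Rcan1. Arhgef7, an exchange factor for Rac and Cdc42, had 27.2, 25.1 and 26.5 FPKM in sleep and 38.1, 37.3 and 38.3 in enforced wake and rose by 0.51 ± 0.05. The palindromic glucocorticoid response element was searched likewise and stood in 1 promoter (0.0101%), that of Sgk1. A match is a string of letters and not a measured site.

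Growth regulators rose more often than they fell. Of 35 Kruppel-like factors and other growth regulators tested, 14 were higher and 5 lower, with a median of 0.18, and 13 and 5 with the GC trend removed. Of all genes 15.7% were higher and 12.7% lower, so the share of lower members was near that of all genes. In all, 12 to 14 were higher and 2 to 5 lower with 1 library left out. The 5 lower genes numbered 2 without any 1 of the enforced wake libraries. Klf10, induced by TGF-beta, had 19.9, 18.8 and 17.8 FPKM in sleep and 34.3, 35.2 and 36 in enforced wake and rose by 0.87 ± 0.06. Gadd45b, a stress-induced protein linked to DNA demethylation in neurons, had 3.83, 3.76 and 3.83 FPKM in sleep and 8.52, 8.47 and 10.2 in enforced wake and rose by 1.06 ± 0.08. The cyclins Ccnd2 and Ccnd1 rose by 0.66 ± 0.08 and 0.59 ± 0.11. Klf6 had 22.7, 21.1 and 22.2 FPKM in sleep and 15.2, 14.1 and 14.7 in enforced wake and fell by 0.56 (limma adjusted p = 0.0028), opposite to Klf10 and Klf9, and Klf11 fell by 0.48. Bdnf, the neurotrophin, had 12.7, 11.6 and 12.3 FPKM in sleep and 27, 30.7 and 25.9 in enforced wake with no overlap, and rose by 1.13 ± 0.08. Ddit4l, an inhibitor of mTOR complex 1, had 11.2, 11.2 and 11.5 FPKM in sleep and 6.83, 7.18 and 7.55 in enforced wake and fell by 0.59.

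Splicing regulators of the SR family rose more often than they fell. Of 27 SR proteins, Clk kinases and Luc7-like genes tested, 11 were higher and 2 lower, with a median of 0.25, and the counts were the same with the GC trend removed. Between 5 and 10 were higher with 1 library left out, the fewest without enforced wake replicate 2 or 3. Srsf10, an SR protein that turns into a splicing repressor when dephosphorylated, had 11.6, 12.5 and 13.6 FPKM in sleep and 23.7, 21.9 and 25 in enforced wake and rose by 0.85 ± 0.08 (limma adjusted p = 0.00208). Srsf7 had 32.5, 37.6 and 34 FPKM in sleep and 56.3, 53.1 and 48.9 in enforced wake and rose by 0.59 ± 0.08, and Srek1 rose by 0.37 ± 0.05. Srsf5 went the other way with 94.7, 102 and 92.9 FPKM in sleep and 46.6, 57.1 and 54.1 in enforced wake, and its fall of 0.87 did not pass with the most abundant transcript of the gene taken alone.

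In 25 hnRNP genes, which encode abundant nuclear RNA-binding proteins, 2 were higher and 7 lower, with a median of -0.09, and 2 higher and 8 lower with the GC trend removed. The 7 lower genes numbered 3 without enforced wake replicate 2 and 4 without replicate 3. Hnrnpdl, among the largest falls named by rule, had 70.6, 83.4 and 74.8 FPKM in sleep and 37.5, 31.1 and 32.3 in enforced wake. Hnrnpf went the other way, with 26.2, 19.2 and 20.5 FPKM in sleep and 37.5, 37.2 and 34.9 in enforced wake, and rose by 0.72 ± 0.11. In 38 neuronal and FET RNA-binding proteins 6 were higher and 11 lower, and 6 and 8 with the GC trend removed. The 11 became 4 without enforced wake replicate 2 or 3, and the 6 became 3 without replicate 2. Celf4, which binds many synaptic messenger RNAs, had 54.2, 52.7 and 54.9 FPKM in sleep and 97.9, 91.6 and 95.4 in enforced wake and rose by 0.81 ± 0.05 (limma adjusted p = 0.00101). Nova1, a neuronal splicing regulator, had 12.2, 12.5 and 11.1 FPKM in sleep and 7.35, 7.39 and 7.31 in enforced wake and fell by 0.63 (limma adjusted p = 0.00262). In both genes the 3 libraries of a group lay close together. Cpeb4, which controls polyadenylation in the cytoplasm, had 25.5, 26.4 and 23.5 FPKM in sleep and 19.6, 17.4 and 17.1 in enforced wake and fell by 0.46.

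Replication-dependent histone genes were higher as a group. Of 54 tested, 43 were higher and none lower, with a median of 0.72. With 1 library left out 33 to 41 were higher. With the GC trend removed 25 were higher and 2 lower, and with all 9 libraries in the fit 22 were higher. Their messenger RNAs end in a stem-loop in place of a poly(A) tail, so total RNA libraries hold them where poly(A) selection would not. Hist1h4a had 3.19, 2.69 and 3.04 FPKM in sleep and 8.87, 8.51 and 9.31 in enforced wake and rose by 1.32 ± 0.08 (limma adjusted p = 0.000681), Hist1h4m had 8.62, 6.04 and 8.13 FPKM in sleep and 21.1, 21 and 20.5 in enforced wake and Hist1h3i rose by 1.26 ± 0.14. Hist1h2bc, one of the more abundant, rose by 0.48 ± 0.05 from 17.3, 18 and 17.8 to 24.8, 26 and 24.6 FPKM. Hist2h2be (-0.07), Hist1h1c (0.14), Hist1h1e (0.04) and Hist1h2ac (0.21) did not pass. Histone genes are near-identical copies, so the value of any 1 of them is uncertain.

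Of 10 small abundant non-coding RNAs tested, 5 were higher and 1 lower, and 1 and 1 with the GC trend removed. The 5 became 3 without enforced wake replicate 2. The 7SL RNA of the signal recognition particle had 3456, 2541 and 3917 FPKM in sleep and 6427, 7016 and 6782 in enforced wake for the copy Rn7s2, and Rn7sk, which binds the elongation factor P-TEFb, had 1825, 1691 and 1901 FPKM in sleep and 2363, 2607 and 2607 in enforced wake. Both were above every sleep library, by 1.05 ± 0.16 and 0.48 ± 0.08. Neither passed with the GC trend removed, where the differences were 0.37 and -0.03, without the filter on low FPKM, or with all 9 libraries in the fit. The U11 small nuclear RNA Rnu11, of the minor spliceosome, moved the other way, with 3.4, 2.92 and 4.11 FPKM in sleep and 1.11, 1.55 and 1.52 in enforced wake, and fell by 0.90. Of 96 small nucleolar RNA genes 2 were higher and 3 lower, a share of 5.21%. The part of library composition in the rise of the histones was not tested.

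Of 57 chromatin modifiers 18 were higher and 4 lower, with a median of 0.11. With the GC trend removed 5 were higher and 7 lower. Without enforced wake replicate 2 or 3 the 18 became 10 and 9, and the 4 lower became 2 without replicate 3. Tet3, which oxidises methylated cytosine, had 3.01, 1.52 and 2.49 FPKM in sleep and 5.79, 6.46 and 7.23 in enforced wake, and its rise of 1.19 ± 0.17 did not pass with its most abundant transcript alone. Hdac3, the deacetylase of the NCoR complex, had 29.6, 29.3 and 22 FPKM in sleep and 15.4, 16.9 and 17.2 in enforced wake and fell by 0.66, which did not pass with the replicate block and GC correction together.

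Receptors for serotonin moved in different directions. Htr1b, an inhibitory receptor of axon terminals, had 2.98, 3.48 and 3.48 FPKM in sleep and 5.53, 6.18 and 6.4 in enforced wake and rose by 0.71 ± 0.08 (limma adjusted p = 0.00387). Htr1a, an inhibitory receptor of the cell body, had 5.19, 5.49 and 5.58 FPKM in sleep and 3.58, 3.12 and 3.37 in enforced wake and fell by 0.56 (limma adjusted p = 0.00457). Htr2a, the main excitatory serotonin receptor of cortical pyramidal cells, had 19, 19 and 18.8 FPKM in sleep and 23.4, 25 and 23.6 in enforced wake and rose by 0.33 ± 0.05, and Htr5b, at a low level, rose by 0.73 ± 0.10 from 0.126, 0.218 and 0.207 to 0.749, 1.16 and 1.01 FPKM. In each of these receptors the groups did not overlap. The muscarinic receptor Chrm3 had 47.5, 43 and 45 FPKM in sleep and 33.6, 35.7 and 35.3 in enforced wake and fell by 0.36. Over the 29 acetylcholine, monoamine and adenosine receptors tested, 5 were higher and 3 lower, with a median of 0.03, and 5 and 4 with the GC trend removed. The count is below the share of all genes in the lower direction and near it in the higher one.

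Single potassium channels passed in both directions. Kcna4, an A-type channel, had 15.5, 16.1 and 16.2 FPKM in sleep and 11.1, 10.6 and 10.2 in enforced wake and fell by 0.54 (limma adjusted p = 0.00298). Kcnh7, an ERG channel, had 41.3, 43.8 and 41.9 FPKM in sleep and 32, 32.9 and 32.3 in enforced wake and Kcnj3, the GIRK1 subunit opened by G proteins, had 20.3, 18.7 and 18 FPKM in sleep and 14.2, 13.2 and 13.4 in enforced wake, with falls of 0.37 and 0.45. Kcnk1, a leak channel of the TWIK family, had 33.7, 32.7 and 32.6 FPKM in sleep and 44.4, 46.1 and 44.5 in enforced wake and rose by 0.44 ± 0.05, and Kcng1, a modifying subunit, rose by 0.75 ± 0.12 from 3.99, 2.93 and 3.8 to 6.34, 6.12 and 7.52 FPKM. Of 72 channel genes tested 15 were higher and 10 lower, with a median of 0.08. Without enforced wake replicate 2 or 3 these were 9 and 5, and with the GC trend removed 7 were higher and 17 lower. Before that step the shares lay near those of all genes (15.7% higher and 12.7% lower). After it 10.4% of all genes were higher and 12.7% lower, so the lower share of the channels then lay above that of all genes. Fgf14 and Fgf12, intracellular partners of sodium channels at the axon initial segment, fell by 0.54 and 0.52. Of 12 sodium channel genes and partners 2 were higher and 4 lower, 1 and 3 with the GC trend removed, and 0 and 2 without enforced wake replicate 2.

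Of 28 neuropeptides, granins and their processing enzymes 10 were higher and 3 lower, with a median of 0.20. With the GC trend removed these were 6 and 2, and without enforced wake replicate 2 they were 6 and 0. Crh, the corticotropin-releasing hormone of a class of cortical interneurons, had 1.95, 1.42 and 2.13 FPKM in sleep and 4.22, 3.49 and 3.51 in enforced wake and rose by 0.75 ± 0.12 (limma adjusted p = 0.00858). Pcsk1, the convertase that cuts prohormones, had 24.5, 26.1 and 25.6 FPKM in sleep and 44.3, 43.8 and 39.4 in enforced wake and rose by 0.72 ± 0.06 (limma adjusted p = 0.00178). Both were above sleep in every library. Sst (0.36), Npy (0.19) and Penk (-0.08) did not pass. Among 22 neuropeptide receptors 10 were higher and 2 lower, but 2 were higher without enforced wake replicate 2 or 3 and 3 with the GC trend removed, beside 3 lower. Hcrtr2, a receptor of the wake-promoting peptide orexin, had 1.08, 1.004 and 1.01 FPKM in sleep and 1.72, 1.59 and 1.59 in enforced wake, and its rise of 0.38 ± 0.07 did not pass with its most abundant transcript alone. Npy1r had 12.4, 12.5 and 12.5 FPKM in sleep and 8.74, 9.33 and 8.53 in enforced wake and fell by 0.45, which did not pass with the replicate block and GC correction together.

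Genes of contact and shape changed singly rather than as groups. Of 34 synaptic adhesion genes 9 were higher and 7 lower, and of 65 protocadherins 3 were higher and 5 lower, with a median of -0.12. With the GC trend removed the adhesion genes were 5 and 7 and the protocadherins 2 and 4. Without enforced wake replicate 3 the adhesion genes were 4 and 4. Slitrk1, a postsynaptic adhesion protein, had 42.5, 39.2 and 39.3 FPKM in sleep and 28.4, 29 and 28.2 in enforced wake and fell by 0.49 (limma adjusted p = 0.00336), and Slitrk3, its relative at inhibitory synapses, fell by 0.34. Pvrl3, which encodes nectin-3, had 20.9, 20.6 and 20.6 FPKM in sleep and 9.33, 11.7 and 9.99 in enforced wake with no overlap, and fell by 0.94 (limma adjusted p = 0.00189). Epha10, an ephrin receptor without kinase activity, had 4.34, 3.96 and 4.12 FPKM in sleep and 7.9, 7.84 and 8.28 in enforced wake and rose by 0.81 ± 0.06, and the ephrin Efnb1 rose by 0.87 ± 0.11 from 1.98, 1.42 and 1.65 to 3.33, 4.33 and 4.09 FPKM. Nrp1, a semaphorin coreceptor, rose by 0.48 ± 0.07, and the netrin receptor Unc5d fell by 0.38. Rac1, a small GTPase of the actin cytoskeleton, had 68.1, 67.8 and 68.4 FPKM in sleep and 19.5, 18.4 and 18.6 in enforced wake and fell by 1.80, and in the GFP-Fxr1 libraries it stood at 69.4, 68.8 and 65.7 FPKM. Of 49 tubulins, kinesins and dyneins 11 were higher and 3 lower, but 1 was higher without enforced wake replicate 3, and with the GC trend removed 2 were higher and 3 lower.

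Of 25 genes of the tricarboxylic acid cycle none was higher and 4 were lower, with a median of -0.07, against 12.7% of all genes. Without enforced wake replicate 2 there were 2 lower, and with the GC trend removed 3. Idh1, the cytosolic isocitrate dehydrogenase, had 17.5, 18 and 17.6 FPKM in sleep and 13.7, 12.3 and 12.5 in enforced wake and fell by 0.44 (limma adjusted p = 0.00606). Of 20 glycolytic genes 4 were higher and none lower, with 1 higher without enforced wake replicate 2 or 3 or sleep replicate 3 and 8 without sleep replicate 1. With the GC trend removed 2 were higher. Pfkfb3, which makes the activator of phosphofructokinase, had 8.15, 8.58 and 6.005 FPKM in sleep and 16.1, 18.7 and 22 in enforced wake and Slc2a1, the glucose transporter GLUT1, had 6.43, 4.96 and 5.78 FPKM in sleep and 8.92, 9.58 and 10.1 in enforced wake. They rose by 1.22 ± 0.15 and 0.65 ± 0.10, neither of which passed with the most abundant transcript alone. In cholesterol synthesis 3 of 32 genes were higher and 7 lower, 2 and 8 with the GC trend removed, and 4 were lower without enforced wake replicate 2. Insig1, the sterol sensor that holds back SREBP, had 28.7, 31.7 and 28.6 FPKM in sleep and 18.9, 19.6 and 20.2 in enforced wake and fell by 0.58 (limma adjusted p = 0.00304), and the synthesis enzyme Nsdhl fell by 0.48. Ebp, another enzyme of that pathway, rose by 0.38 ± 0.06, so the pathway did not move in 1 direction.

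Atf4, the transcription factor of the integrated stress response, rose. It had 61.8, 56.7 and 58.9 FPKM in sleep and 79.6, 82.3 and 78.8 in enforced wake, with no overlap, and a difference of 0.43 ± 0.05 for Atf4. Of 36 tRNA synthetases and amino acid response genes, many of which Atf4 can induce, 3 were higher and 5 lower, below the share of all genes in the higher direction and near it in the lower, and 4 and 5 with the GC trend removed. Lars, the leucyl-tRNA synthetase, had 19.1, 19.8 and 19.99 FPKM in sleep and 14.6, 15 and 14 in enforced wake and fell by 0.41. Of 47 proteasome subunits 4 were higher and 9 lower, with a median of -0.10. Without enforced wake replicate 2 none was higher and 3 were lower, and with the GC trend removed 2 were higher and 4 lower. Of 26 autophagy genes 7 were higher and 2 lower, with 1 higher without enforced wake replicate 3 and 2 without replicate 1 or 2. With the GC trend removed 2 were higher and 3 lower. Atg10, the enzyme that joins Atg12 to Atg5, fell by 0.55.

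The largest changes outside the lists included several genes with little spread. Trim2, a ubiquitin ligase of axons (ENSMUSG00000027993, chr3:84160439-84306877, GRCm38), had 39.3, 38.8 and 39.4 FPKM in sleep and 118, 148 and 129 in enforced wake and rose by 1.72 ± 0.09 (limma adjusted p = 0.000409). In the GFP-Fxr1 libraries it had 50.3, 32.9 and 55.3 FPKM. Their range reached from below the sleep libraries to above them and stayed below every enforced wake library. Most of the rise lay in transcript ENSMUST00000054990, at 6.33, 0.000635 and 0 FPKM in sleep and 69.6, 95.03 and 78.3 in enforced wake. That transcript had 0.00773, 0 and 0.00623 FPKM in the GFP-Fxr1 libraries. ENSMUST00000107695 went from 27.3, 32.5 and 35.005 FPKM in sleep to 43.4, 49.7 and 46.6 in enforced wake. The part of transcript assignment in the rise of Trim2 was not tested. Igsf9b, an adhesion protein of inhibitory synapses, rose from 3.65, 1.81 and 3.32 to 8.95, 9.55 and 11.1 FPKM (limma adjusted p = 0.00492). Its GFP-Fxr1 libraries held 2.19, 4.87 and 5.84 FPKM. C1qtnf4, a secreted protein of the C1q family, had 2.72, 1.12 and 2.45 FPKM in sleep and 6.39, 7.4 and 7.84 in enforced wake and rose by 1.45 ± 0.21. Among the falls, Hmgb3, a chromatin protein, had 18.2, 21.2 and 16.6 FPKM in sleep and 10.2, 8.65 and 7.99 in enforced wake and fell by 0.98 (limma adjusted p = 0.0038). Lactb2, a mitochondrial RNA nuclease, had 3.92, 4.26 and 3.67 FPKM in sleep and 1.54, 1.64 and 1.58 in enforced wake and fell by 0.93 (limma adjusted p = 0.00135). For each of these 5 genes the groups did not overlap.

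The most extreme fall belonged to a miRNA gene model at the start of another gene. Mir8114 (ENSMUSG00000099227, chr1:153899926-153900036, GRCm38) had 84.4, 52.4 and 62.4 FPKM in sleep and 0.487, 0.181 and 0.24 in enforced wake and fell by 5.67 (limma adjusted p = 5.09e-05). The GFP-Fxr1 libraries had 19.1, 46.6 and 0.0739 FPKM, which covers both levels. The model overlaps the start of Glul, glutamine synthetase (chr1:153899944-153909723), on the same strand, and Teddm2 (chr1:153849542-153900228) on the other, so its reads cannot be told apart from theirs. Glul had 179, 161 and 164 FPKM in sleep and 210.4, 229 and 259 in enforced wake, the opposite direction. The mature RNA listed by RefSeq at chr1:153899989-153900009 is shown with its seed, bases 2 to 8, in capitals, although a library of long RNA fragments does not measure it.
mmu-miR-8114: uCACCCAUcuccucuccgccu
The largest rise of all genes tested was that of the miRNA model AC099934.1 (chr12:69159518-69159596, GRCm38), with a symbol of a kind left out of the rule for named genes. It held 0.11, 0.12 and 0.114 FPKM in sleep and 6156, 7129.5 and 6446 in enforced wake. The difference was 12.52 ± 0.07 on the log2 scale (limma adjusted p = 1.15e-09). Its model overlaps the end of the 7SL RNA gene Rn7s1 on the same strand, so reads of the overlapping genes may have been split between them. Rn7s1 held 4310.2, 2529 and 3902 FPKM in sleep and 6405, 6994 and 6770.5 in enforced wake. A like model at the other 7SL RNA gene, AC157822.1, held 3283, 0.119 and 0.113 FPKM in sleep and 6129, 7096 and 6428 in enforced wake and did not pass. Of the sleep libraries, replicate 1 was the high one there and the others were near 0. The largest rise among the genes named by rule was RP23-358K1.5, an unprocessed pseudogene (ENSMUSG00000108352, chr7:30926668-30927147, GRCm38), listed at 0 in the 3 sleep libraries and at 9.75, 9.40 and 11.0 FPKM in enforced wake. It was listed at 0 in the GFP-Fxr1 libraries too. An annotation of the same build names it Usf2-ps1, a copy of Usf2, so its reads may be shared with that gene, which had 13.5, 21.9 and 12.8 FPKM in sleep and 20.8, 12.2 and 17.3 in enforced wake and did not pass.

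Changes in which transcript carried a gene's RNA were rare and large. Of 29116 transcripts tested 1055 passed (3.62%), with 596 higher (2.05%) and 459 lower (1.58%). A transcript share is printed below as the percentage of its gene's FPKM. It was tested as log2(FPKM + 1) of the transcript minus that of the summed other transcripts of the gene. Of 15292 transcript shares 95 passed (0.621%), with 52 higher (0.34%) and 43 lower (0.281%), in 67 genes. In 29 of these genes the sum over transcripts did not pass. Leaving out 1 library gave 283 to 612 transcripts and 67 to 155 shares. Ppt1, the lysosomal palmitoyl-protein thioesterase, had a sum that did not pass (-0.17). Its main coding transcript ENSMUST00000030412 held 94.1%, 94.4% and 93.5% of the gene in sleep and 5.73%, 5.09% and 8.99% in enforced wake. ENSMUST00000120157, annotated as a target of nonsense-mediated decay, held 0.528%, 0.272% and 0.276% in sleep and 59.9%, 56.8% and 55.2% in enforced wake. The GFP-Fxr1 libraries, also of enforced wake, were at 95.0%, 93.2% and 94.0% for the coding transcript, like sleep. The share of ENSMUST00000120157 passed with limma adjusted p = 0.00134.

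The same form appeared in several other genes. In Pak3, a kinase downstream of Rac, ENSMUST00000172330 held 0.0904%, 0.0591% and 0.0627% in sleep and 76.5%, 78.2% and 73.3% in enforced wake, while the gene did not pass (-0.17). The sleep libraries of Pak3 were split too, with ENSMUST00000033640 leading in the first at 74.7% and ENSMUST00000112868 in the other two at 77.7% and 74.1%. In Atp6v0c, the pore subunit of the vesicle proton pump, ENSMUST00000098862 held 0.945%, 0.833% and 0.746% in sleep and 56.5%, 43.8% and 44.8% in enforced wake. In Mlf2 a transcript with a retained intron, ENSMUST00000203060, held 25.5%, 31.6% and 23.0% in sleep and 0.806%, 0.744% and 0.586% in enforced wake. Sleep and enforced wake libraries did not overlap for the first transcript named of each of these genes. In Pex5, the receptor for import into peroxisomes, the leading transcript of enforced wake (89.8%, 91.9% and 84.3%) was at 0 in sleep and in the first GFP-Fxr1 library but at 92.2% and 83.7% in the other two. Such a switch within 1 group, as in Pak3 and Pex5, shows that the estimate can pass between transcripts that share exons, and the part of that step in the differences with state was not tested.

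**Figure D5:**
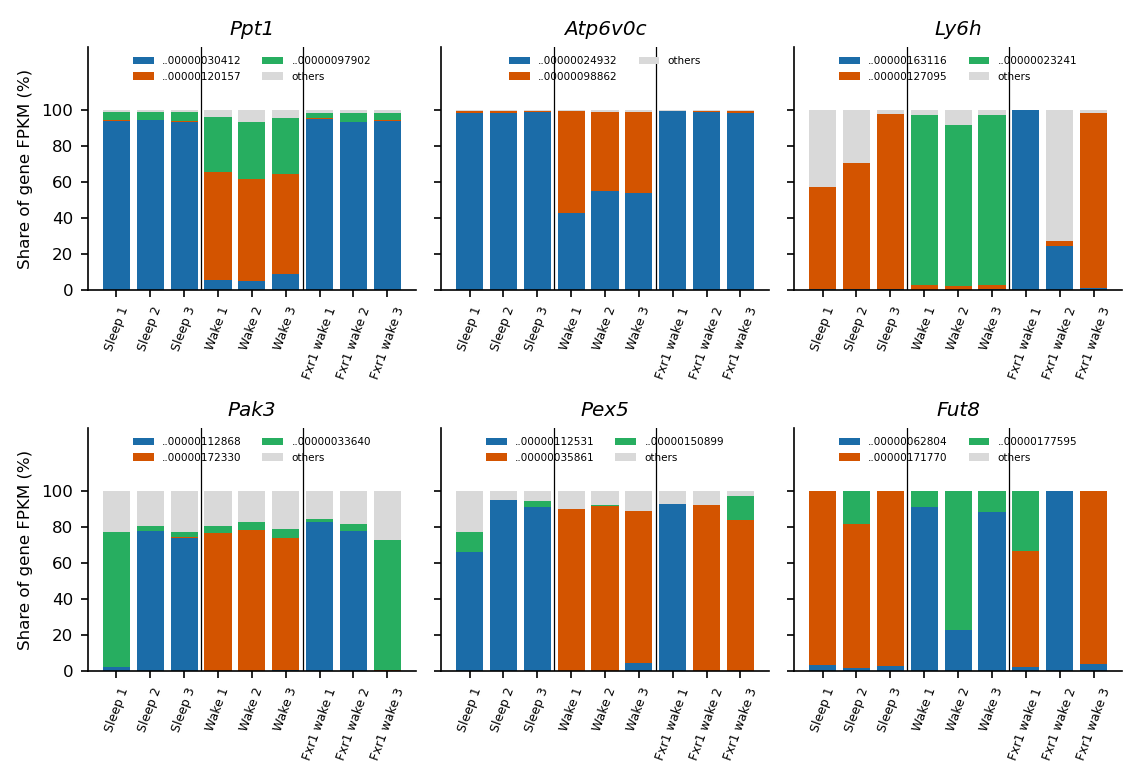
Stacked bars give the share of a gene's FPKM (vertical axis, %) held by its 3 leading transcripts, or 2 for Atp6v0c, and by all others in each of 9 libraries, with sleep, enforced wake and enforced wake with Fxr1 separated by lines. In Ppt1 and Atp6v0c the GFP-Fxr1 libraries look like sleep, and in Pak3, Pex5, Ly6h and Fut8 libraries of 1 group differ among themselves.

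Long non-coding RNAs were lower far more often than higher. Over 4 annotated classes (lincRNA, antisense, processed transcript and bidirectional promoter) 572 genes were tested, and 29 were higher (5.07%) and 126 lower (22.0%), against 15.7% and 12.7% of all genes, with a median of -0.15. The direction held with the GC trend removed, at 36 higher and 115 lower, and with any 1 library left out, at 14 to 23 higher and 57 to 105 lower, the fewest lower without enforced wake replicate 2. Bidirectional promoter transcripts had 12 of 29 lower and none higher, antisense genes 35 of 167 lower and 7 higher, and lincRNAs 49 of 223 lower and 16 higher. The separate list of long non-coding RNAs of neurons did not show this fall. Of its 20 genes tested 2 were higher and 1 lower, with a median of -0.03, and 1 and 2 with the GC trend removed. The lincRNA Gm12371 had 8.5, 8.49 and 7.42 FPKM in sleep and 2.56, 2.89 and 2.21 in enforced wake and fell by 1.36 (limma adjusted p = 0.00109). Mir22hg, the host of miR-22, had 17.1, 17.9 and 17 FPKM in sleep and 12.5, 12.8 and 12.3 in enforced wake and fell by 0.44, and Cep83os, of the bidirectional promoter class, had 11.2, 14.7 and 11.5 FPKM in sleep and 6.85, 7.07 and 7.34 in enforced wake and fell by 0.73. The lincRNA Gm26917 went the other way, with 6.78, 5.75 and 7.63 FPKM in sleep and 20.04, 20.9 and 27.4 in enforced wake. It rose by 1.62 ± 0.14, and by 0.96 with the GC trend removed. These genes were chosen for display after their values were seen, and whether reads were counted by strand was not given in the sources used here, so an antisense gene cannot be told apart from its partner.

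The authors' deposited table also gives a fold, a p-value and a q-value by transcript. Of 79923 transcripts with a q-value in the authors' deposited table, 14 had a q-value under 0.05, 11 higher and 3 lower in enforced wake, and 7776 had a p-value under 0.05. Of the 14, 6 passed the minimum FPKM used here and 5 of them also passed limma. In the authors' deposited table the Rac1 transcript ENSMUST00000080537 had a q-value of 0.0165, with a fold of 3.56 for sleep over enforced wake.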

How the data were processed

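Ribosome-associated RNA from neurons of the medial prefrontal cortex was compared between 3 libraries of sleep and 3 of enforced wake, grouped by the labels. The authors deposited FPKM per transcript and library, with their fold change (a ratio, tested here to be sleep over enforced wake), p-value and q-value, per the file headers. The submitters' processing notes name the build GRCm38 and the tools StringTie 1.3.4d, HISAT2 2.1.0 and SAMtools 1.9. What computed the fold, p-value and q-value was not given in the sources used here. FPKM of a library are relative to its own total, so a rise of abundant RNAs can lower other values.

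FPKM were summed by gene symbol, and genes with a mean of at least 0.5 FPKM were tested with limma 3.58.1 (R 4.3.3) on log2(FPKM + 1) (intensity trend, 2-sided, Benjamini-Hochberg threshold 0.05). A pseudocount of 1 understates the fold of low genes. Transcripts were tested likewise. Transcript shares were tested as log2(FPKM + 1) of the transcript minus that of the summed other transcripts of its gene. Both the transcript and that sum had to have a mean of at least 1 FPKM. Exact permutation of 3 against 3 libraries cannot give a p under 0.1. In the GC and length correction, splines with 5 degrees of freedom were subtracted from each library. Depth is an estimate, from the smallest step of FPKM multiplied by length in genes of 1 transcript. Code was tested on simulated data.

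The members, the 48 gene lists and the tests were chosen with earlier results of these data known. Lists of immediate early, chaperone, clock and cold-inducible genes were left aside. Named genes include the 12 largest rises and 12 largest falls that passed without overlap, with a mean of at least 2 FPKM. Members of the lists left aside and symbols of the Gm, Rik or AC kind were left out there, but members of the other lists were not. Further named genes are up to 4 genes per list with the smallest p, other list members that passed, the first 3 markers of each cell type and the 6 largest changes of share in each direction. Members that did not pass, long non-coding RNAs and neighbouring genes were added after their values were seen. Promoters, miRNA sequences and motif positions came from RefSeq tables of GRCm38.p6, and gene positions from a GENCODE annotation of GRCm38. Other pseudocounts, filters, scalings, a replicate block, the GC correction and leaving out each library were tried as alternatives.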

Additional observations from a re-analysis of the deposited data

How the results depend on the processing

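The replicate numbers did not pair the samples: deviations of same-numbered libraries correlated at -0.0598, -0.00765 and 0.0622. With a replicate block as a term 3116 genes passed (1780 higher and 1336 lower), 11 transcripts (6 and 5) and 0 transcript shares (0 higher and 0 lower), and with the block and the GC correction together 2169 genes (996 higher, 1173 lower). The GC correction alone left 1527 higher genes, all 9 libraries in 1 fit left 1411 genes (677 higher, 734 lower), the most abundant transcript of each gene 2317 (1230 higher, 1087 lower) and no filter on low FPKM 1513 higher. Among transcripts, a mean of at least 2 FPKM gave 728 lower, and no filter gave 346 (227 higher, 119 lower). Shares with a mean of at least 5 FPKM in both the transcript and the summed others of its gene gave 43 (23 higher, 20 lower). Leaving out 1 library gave 1850 to 3635 genes (1085 to 2101 higher, 754 to 1534 lower), 283 to 612 transcripts (189 to 392 higher, 93 to 220 lower) and 67 to 155 shares (33 to 80 higher, 34 to 75 lower). Of 3797 values of 225 named genes under the alternatives, 3340 kept direction and side of the threshold, 421 no longer passed, 18 newly passed and 18 turned direction. With the GC correction Cck became -0.000488, Nefh -0.0548, Rn7sk -0.0265, Scarna2 -0.0676 and Slc12a5 -0.0371, also with the block, and Olig2 -0.301. With the most abundant transcript Map2 became -0.101, Pde2a -0.641, Camk2b -0.138, Hnrnpr 1.71, Optn 0.133, Clcn3 0.0611 and Atp6v0c -0.320. The cause was not tested.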
